A study of Drosophila melanogaster with 2 samples.

Results

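The genes described here are the microRNA genes of the fly and the genes that hold them, read against the chromatin binding map of the protein encoded by CG7556. Members were all genes whose symbol begins with mir- on the 6 arms X, 2L, 2R, 3L, 3R and 4, which gave 260 of the 262 such genes in the annotation, against 3210 other non-coding and 13945 protein-coding genes on the same arms. Another 2 microRNA genes lie off these arms and were not used. Whole Drosophila melanogaster embryos of both sexes, aged 0 to 24 h, from a transgenic line that stably makes CG7556 with GFP fused to its C-terminal end, were used for chromatin immunoprecipitation with an anti-GFP antibody. The 2 biological replicates form 1 group, so there was no second condition, genotype or age to compare and no test between groups. In whole embryos of mixed ages, strong binding in few cells and weak binding in many cells cannot be told apart.

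A microRNA is cut from a hairpin in a longer transcript. In flies Drosha and its partner Pasha release the hairpin in the nucleus, Dicer-1 cuts it in the cytoplasm, and one strand is loaded into AGO1, where its seed, the bases near its 5' end, pairs with target messages. Some hairpins lie in introns of protein-coding genes and are made with the host's transcript, some are whole introns released by splicing (mirtrons), some lie in long non-coding RNAs, and many stand in clusters that share 1 primary transcript. The annotated start of a microRNA gene is therefore usually the first base of its hairpin, and the promoter that drives it can be far upstream. The question here was how often, and where, CG7556 peaks lie at hairpins, upstream of them and at the starts of their hosts.

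Each replicate gave a list of 30000 regions, the pooled reads gave another 30000, and the optimal list, the regions that passed the authors' reproducibility step, held 7184 regions with signals from 137 to 4859 and a median of 244. Signal is the authors' value for a region. Its scale is not stated, so it serves here only to rank and describe regions. The summit is the single base the authors give as the centre of enrichment. Of the 7184 optimal summits, 2089 (29.1%) had another optimal summit within 250 bp, so a gene with a pair of close summits is counted once. Between the replicates, signals at 7139 optimal regions found in both had a median ratio of 1.08 (replicate 1 over replicate 2), and the 5th and 95th percentiles were 0.554 and 1.73. Read depth is unknown, and the control was not analysed here.

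The mature microRNAs that the results turn on are printed below from the RefSeq Release 6 assembly (dm6 coordinates), with the seed, bases 2 to 8, in capitals and 1 annotated product shown per hairpin. The first set shares the seed of the miR-2 family, known in flies to pair with the K box of Notch target genes, and is shown because its loci include several of the strongest host and upstream summits.
mir-2a-1 (chr2L:19569902-19569924, minus strand): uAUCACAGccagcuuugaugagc
mir-2b-1 (chr2L:8258623-8258645, minus strand): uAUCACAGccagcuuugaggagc
mir-2b-2 (chr2L:19570189-19570211, minus strand): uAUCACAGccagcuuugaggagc
mir-2c (chr3R:15417761-15417783, minus strand): uAUCACAGccagcuuugaugggc
mir-13a (chr3R:15417548-15417569, minus strand): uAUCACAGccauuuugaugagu
mir-13b-1 (chr3R:15417412-15417433, minus strand): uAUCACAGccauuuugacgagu
mir-11 (chr3R:21622504-21622524, minus strand): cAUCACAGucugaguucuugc
mir-279 and mir-996 sit downstream of the strongest summit of all hosts. They share their seed with mir-286 of the mir-309 cluster, which is not printed. The miR-9 and miR-92 seeds and the seed of mir-275 and mir-306 each join microRNAs of separate or shared hosts described below.
mir-279 (chr3R:29215651-29215672, plus strand): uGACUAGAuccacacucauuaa
mir-996 (chr3R:29217244-29217265, plus strand): uGACUAGAuuucaugcucgucu
mir-9a (chr3L:19565140-19565162, plus strand): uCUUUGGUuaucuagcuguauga
mir-9b (chr2L:16698758-16698780, plus strand): uCUUUGGUgauuuuagcuguaug
mir-9c (chr2L:16697936-16697957, plus strand): uCUUUGGUauucuagcuguaga
mir-92a (chr3R:25646560-25646581, plus strand): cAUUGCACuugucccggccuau
mir-92b (chr3R:25651457-25651478, plus strand): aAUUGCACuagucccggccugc
mir-275 (chr2L:7425853-7425875, plus strand): uCAGGUACcugaaguagcgcgcg
mir-306 (chr2L:16698418-16698439, plus strand): uCAGGUACuuagugacucucaa
The next set comes from microRNAs that had a summit within 500 bp of the hairpin start and whose printed products share their seeds with no other member. Of these, bantam (mir-ban), a growth-promoting and anti-apoptotic microRNA, is the most studied.
mir-ban (chr3L:642259-642281, plus strand): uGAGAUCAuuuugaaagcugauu
mir-9377 (chrX:12665217-12665238, plus strand): cGCUCUUUcucucuaucuggcc
mir-9378 (chr2L:10751915-10751938, minus strand): aGUGGAGUgagaccucgaguucgg
mir-2496 (chrX:2010310-2010333, plus strand): gUGCGUGUgugagaggccaucgua
mir-4962 (chrX:3777408-3777431, plus strand): uUUCCCUCucucuguuuacauuga
mir-2282 (chr3L:3412166-3412187, minus strand): aUCGGUGAgcuaaaaauagaau

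Few hairpins carried a peak. An optimal summit lay within 500 bp of the annotated start of 10 of 260 microRNA genes (3.85%), against 9.03% of 3210 other non-coding genes and 21.1% of 13945 protein-coding genes. The share of all positions of the 6 arms that lie within 500 bp of an optimal summit was 4.69%, and it was 5.41% in introns and 4.39% between genes, so the microRNA share was near that of any position. An optimal region overlapped the hairpin itself at 2 of 260 genes, mir-9378 and mir-4962, and a summit fell inside a hairpin at 1 of them. Of the 260, 195 had no summit in any of the optimal, pooled and replicate lists within 500 bp.

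All pooled regions, including those the authors did not accept, reached 43 of 260 microRNA genes (16.5%), against 28.2% of the other non-coding and 42.1% of the protein-coding genes. The replicate lists of 30000 regions reached 49 genes in replicate 1 and 48 in replicate 2. With the strongest regions of each replicate, as many as the optimal list holds, the counts were 9 and 11, with 8 genes in both. The difference from other non-coding genes was -5.19 percentage points in the optimal list, -5.01 with the strongest regions of replicate 1 and -4.83 with those of replicate 2. The 33 genes with only a weaker pooled region had signals from 23.1 to 132, with a median of 65.3, and mir-34, a microRNA of ageing and neuronal upkeep, had the highest of them.

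The profile of summits around the start showed the same absence of a peak. In the 500 bp before the start there were 2.69 optimal summits per 100 microRNA genes, and in the 500 bp after it 1.54. The bin from 1000 to 500 bp upstream was higher, at 5.77. Protein-coding genes had 17.9 summits per 100 genes in the 500 bp before the start and 2.81 in the bin upstream of it, and the other non-coding genes had 6.32 and 4.64. MicroRNA starts thus showed no rise at the start of the kind seen at protein-coding genes.

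**Figure D1:**
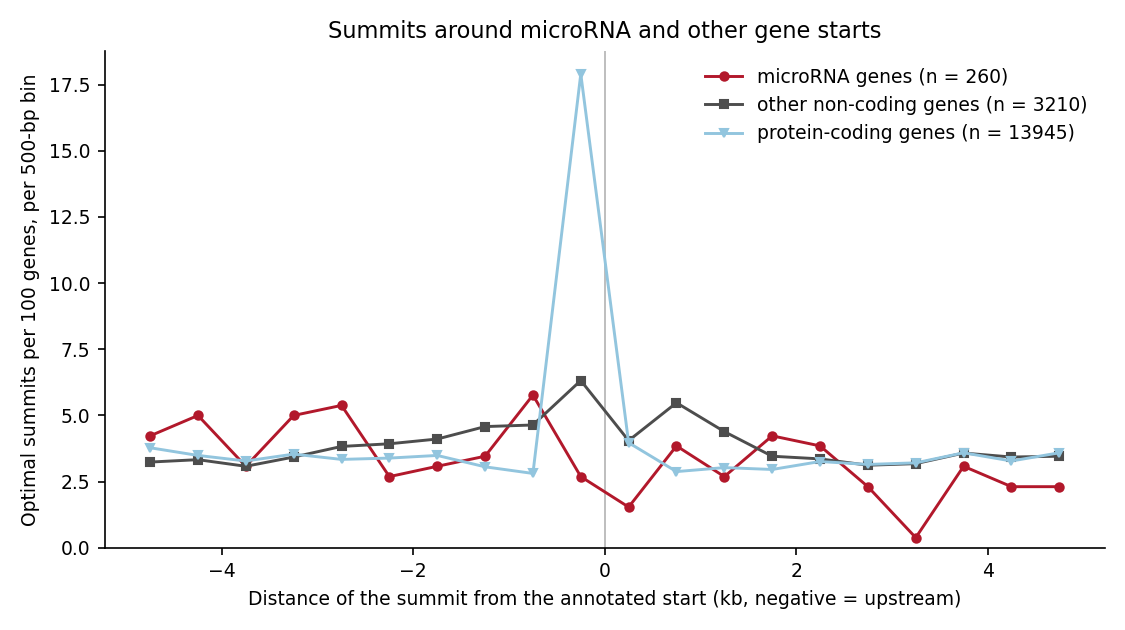
Optimal summits per 100 genes in 500-bp bins from 5 kb upstream to 5 kb downstream of the annotated start, for 260 microRNA genes, 3210 other non-coding genes and 13945 protein-coding genes. The microRNA line is at 2.69 in the bin before the start, where the protein-coding line reaches 17.9.

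Among the 10 microRNAs with an optimal summit within 500 bp, 6 were intronic, 3 touched an exon of a host and 1 lay between genes, and all 11 summits (mir-9378 had a pair) were matched in both replicates. mir-9377, in an intron of Tis11, whose protein drives decay of AU-rich messages, had the highest signal, 669 in the pooled list, with 343 in replicate 1 and 321 in replicate 2. Its summit lay 417 bp downstream of the hairpin start, and the nearest start site of any other gene was that of Tis11, at 5100 bp. The summit was thus inside the gene and far from its promoters.

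mir-9378, in an intron of CG17124, had summits 178 and 393 bp upstream. The nearer had a signal of 545 in the pooled list, 196 in replicate 1 and 338 in replicate 2. The other had 245 in the pooled list, 148 in replicate 1 and 111 in replicate 2, so the replicates ordered the pair alike but lay further apart at the nearer summit.

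mir-2496, which lies between genes on X, had a summit 477 bp upstream with a signal of 459 in the pooled list, 236 in replicate 1 and 218 in replicate 2. The nearest start site was that of lncRNA:CR45478, at 134 bp. A further summit 676 bp upstream of the hairpin (signal 546) lay 260 bp from the start of PIG-K, a subunit of the enzyme that attaches GPI anchors. This microRNA therefore lies close to a promoter region of other genes.

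bantam, in an exon of lncRNA:CR43334, had a summit 444 bp downstream of the hairpin start, with a signal of 343 in the pooled list, 165 in replicate 1 and 192 in replicate 2. Upstream, the highest of its summits within 5 kb lay at 1437 bp, with a signal of 600 in the pooled list, 347 in replicate 1 and 246 in replicate 2. Inside the span of its host there were 9 optimal summits, but none within 500 bp of an annotated start of that host.

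The other 6 microRNAs had lower signals. mir-2282, in an intron of sty, which encodes the signalling inhibitor Sprouty, had 279 in the pooled list, 172 in replicate 1 and 114 in replicate 2, with its summit 317 bp downstream. mir-275, in lncRNA:CR43857, had 253 in the pooled list, 103 in replicate 1 and 148 in replicate 2, at 445 bp upstream. Its cluster partner mir-305 lay just outside the window, with the same summit 622 bp upstream. mir-9370, in an exon of Amun, had 241 in the pooled list, 134 in replicate 1 and 50.1 in replicate 2, at 164 bp upstream, within the 3' UTR of its host. The replicates differed most there, with a ratio of 2.68, beyond the 95th percentile of all optimal regions.

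mir-966, in an intron of Pfas, a purine synthesis gene, had 217 in the pooled list, 100 in replicate 1 and 126 in replicate 2, and its summit, 383 bp upstream, was also 46 bp upstream of a Pfas start. mir-4962, in an intron of Tlk, which encodes the Tousled-like kinase, had 182 in the pooled list, 49.6 in replicate 1 and 126 in replicate 2. Its summit was 33 bp downstream of the start and so inside the hairpin (chrX:3777382-3777505), and its replicate ratio of 0.392 was below the 5th percentile. mir-2491, in an intron of fog, a secreted regulator of gastrulation, had 180 in the pooled list, 87.2 in replicate 1 and 91.1 in replicate 2, at 137 bp upstream. The replicates at mir-2491 were as close as those at mir-9377, with ratios of 0.957 and 1.07.

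**Figure D2:**
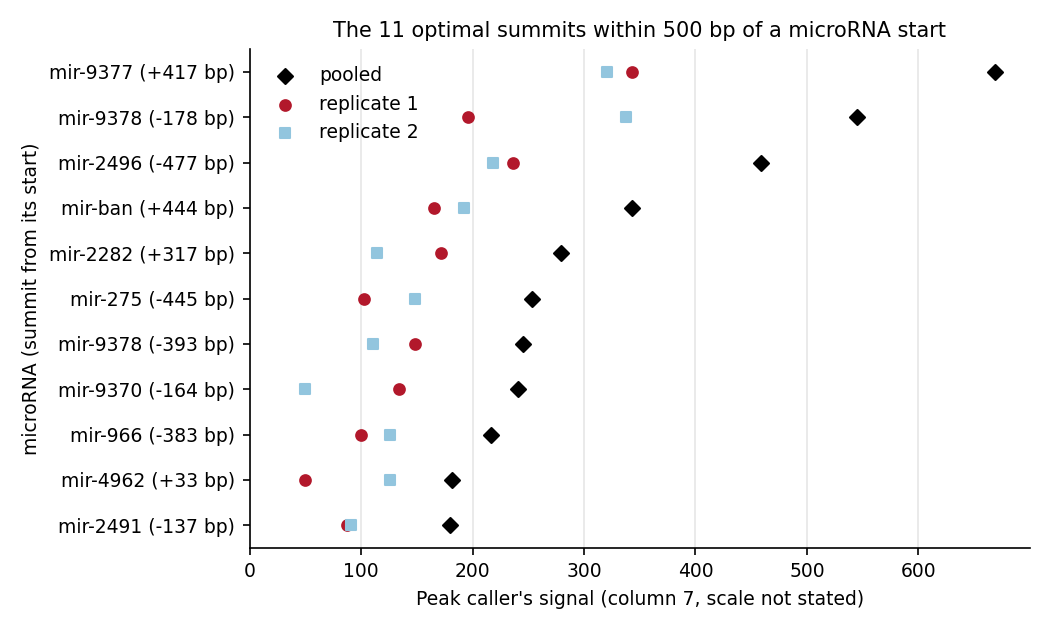
Signal of the 11 optimal summits within 500 bp of a microRNA start, one row per summit, with the pooled value and each replicate. Pooled signals run from 180 at mir-2491 to 669 at mir-9377, and the replicates lie furthest apart relative to their size at mir-4962 and mir-9370.

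The 11 summits had a median signal of 253 and a range from 180 to 669, close to the median of 244 of all optimal summits, with a best rank of 730 of 7184. A start site of another gene lay within 500 bp of 2 of them, at Pfas and lncRNA:CR45478. Summits near a hairpin were thus mostly in the body of a host. Just beyond the window were mir-92a (541 bp), mir-4982 (562 bp), mir-305 (622 bp), mir-4968 (627 bp) and mir-4978 (696 bp), and just within it mir-2496 (477 bp) and mir-275 (445 bp).

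The windows around several of these summits are printed because they show what lies under a peak at a hairpin, 50 bases to either side of the summit on the strand of the microRNA, with capitals for any match on either strand to 6 words: GAGAG (known for the GAGA factor), the repeat CACACACA, the word CAGGTA (known for Zelda), the element TATCGATA (known for DREF), the E-box CACGTG and the word GATAA (known for GATA factors, TTATC when read on the other strand). Matches to one word were counted whether or not they overlapped those to another.
mir-9377 summit (chrX:12665584-12665684, plus strand): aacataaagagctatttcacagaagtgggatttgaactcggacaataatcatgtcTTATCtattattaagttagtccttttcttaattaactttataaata
mir-9378 summit (chr2L:10752066-10752166, minus strand): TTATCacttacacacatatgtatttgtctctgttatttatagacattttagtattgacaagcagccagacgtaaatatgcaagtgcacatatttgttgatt
mir-9378 summit (chr2L:10752281-10752381, minus strand): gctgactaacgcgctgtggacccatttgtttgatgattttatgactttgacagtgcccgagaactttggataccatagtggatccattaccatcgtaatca
mir-ban summit (chr3L:642602-642702, plus strand): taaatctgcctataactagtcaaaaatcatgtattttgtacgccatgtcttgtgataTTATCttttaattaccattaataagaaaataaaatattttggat
mir-2496 summit (chrX:2009773-2009873, plus strand): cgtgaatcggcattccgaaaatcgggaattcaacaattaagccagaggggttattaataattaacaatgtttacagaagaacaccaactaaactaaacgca
mir-275 summit (chr2L:7425300-7425400, plus strand): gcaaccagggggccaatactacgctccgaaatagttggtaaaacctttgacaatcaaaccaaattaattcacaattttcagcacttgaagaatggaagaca
mir-4962 summit (chrX:3777365-3777465, plus strand): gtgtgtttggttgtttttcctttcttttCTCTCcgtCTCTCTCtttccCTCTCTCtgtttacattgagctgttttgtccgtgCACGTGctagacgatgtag
Only the mir-4962 window, which holds a CT-rich run ahead of a CACGTG, had matches to more than 1 motif in these letters. Counted over 100 bp to either side, GAGAG was present at 2 of the 11 summits (18.2%), against 20.7% of all 7184 optimal summits, and GATAA at 6 (54.5%), against 41.8%. The CA repeat was at 1 of the 11, against 3.31% of all optimal summits, the Zelda word at 1, against 3.74%, the E-box at 1, against 1.78%, and the DREF element at none, against 2.02%. With 11 summits these counts do not separate hairpin summits from the rest. GC content had a median of 38.3%, against 33.3% over all optimal summits.

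Upstream of hairpins, summits were as frequent as at other non-coding genes. An optimal summit lay from 0 to 5 kb upstream of 70 of 260 microRNA genes (26.9%), against 27.2% of the other non-coding genes and 36.3% of the protein-coding genes. Over all positions of the arms, averaged over both strands, the share was 18.5%, and it was 19.9% in introns, 22.4% in exons and 13.2% between genes. The 93 summits had a median signal of 287 and a range from 138 to 1904. For 41 of the 70 genes an upstream summit lay within 500 bp of another gene's start site, for 29 of them at the start of a host, and 29 of the 70 had only summits away from any start.

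The strongest upstream summit belonged to mir-279 and mir-996, which share a seed and act in olfactory neurons and other sensory lineages. It lay 1139 bp upstream of mir-279, with a signal of 1904 in the pooled list, 972 in replicate 1 and 926 in replicate 2, and ranked 69 of 7184. The summit was 116 bp upstream of the start of their host lncRNA:CR31044. A hairpin pair without a summit within 500 bp therefore had one of the strongest peaks of the map at the start of its transcript.

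A similar arrangement held for mir-282, whose summit 776 bp upstream (1249 in the pooled list, 621 in replicate 1, 634 in replicate 2) was 348 bp upstream of a start of lncRNA:CR43626. mir-33, a regulator of lipid metabolism held in an intron of the lipid regulator gene SREBP, had a summit 3490 bp upstream with 989 in the pooled list, 507 in replicate 1 and 490 in replicate 2. That summit was 536 bp inside SREBP, so the host fell just outside the 500 bp rule and is not counted among hosts with a summit. mir-9a, which limits sense organ precursors, had a summit 4304 bp upstream with 972 in the pooled list, 499 in replicate 1 and 468 in replicate 2. The nearest start there was that of lncRNA:CR44676, at 363 bp, not that of the annotated host lncRNA:CR45916. These loci had closely matching replicates.

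The microRNAs mir-2c, mir-13a and mir-13b-1 shared a summit with 919 in the pooled list, 493 in replicate 1 and 430 in replicate 2, at 1196 bp upstream of mir-2c and within an exon of their host lncRNA:CR45911, 1333 bp from its annotated start. In the same range, mir-4943 had a summit of 1398 at the start of its host CG5953, mir-4949 one of 871 in CG12054, mir-9382 one of 810 at the start of MRP, an ABC transporter gene, and mir-4910 one of 776 at the start of CG15628. The highest upstream summits of mir-4980 (799), mir-87 (766) and mir-4978 (653) also lay at the start of a gene that does not hold them on the same strand, namely CG46385, CG4709 and mam, the last a Notch coactivator. Those of mir-4982 (756) and mir-92b (693) lay at the starts of their hosts Hs3st-A and jigr1. With mir-4962 (553), and mir-ban and mir-2496 above, these were the 20 microRNAs with the highest upstream signal. Next came mir-9378 (545), mir-4968 (507), and mir-281-1 and mir-281-2 (442 at a shared summit), named after their values were seen.
mir-279 summit (chr3R:29214396-29214496, plus strand): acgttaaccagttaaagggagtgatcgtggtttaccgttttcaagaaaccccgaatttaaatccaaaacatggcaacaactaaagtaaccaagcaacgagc
mir-282 summit (chr3L:3250196-3250296, plus strand): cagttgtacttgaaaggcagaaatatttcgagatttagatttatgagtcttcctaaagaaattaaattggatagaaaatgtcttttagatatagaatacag
mir-33 summit (chr3L:19794421-19794521, plus strand): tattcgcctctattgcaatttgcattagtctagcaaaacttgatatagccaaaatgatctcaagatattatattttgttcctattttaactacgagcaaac
mir-9a summit (chr3L:19560777-19560877, plus strand): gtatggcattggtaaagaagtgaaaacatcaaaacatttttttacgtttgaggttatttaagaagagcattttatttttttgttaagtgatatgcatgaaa
mir-2c summit (chr3R:15418991-15419091, minus strand): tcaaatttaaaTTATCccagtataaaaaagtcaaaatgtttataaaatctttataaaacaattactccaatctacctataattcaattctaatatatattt
The 5 windows above show the strongest upstream summits of well-studied microRNAs, drawn as before. Only the shared window of mir-2c, mir-13a and mir-13b-1 had a match, to GATAA, in its 101 bases. Over the 93 upstream summits, GATAA was within 100 bp of 36.6%, against 41.8% of all optimal summits, and GAGAG of 18.3%, against 20.7%.

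The counts differed by where the hairpin lies, although each class is small. Intronic microRNAs had an optimal summit within 500 bp at 6 of 101 genes (5.94%) and upstream at 33 (32.7%), against 5.41% and 19.9% of intronic positions. Hairpins that touch an exon of a host had 3 of 80 (3.75%) and 26 (32.5%), against 3.87% and 22.4% of exonic positions, with 1 of 36 in coding hosts and 2 of 44 in long non-coding RNAs alone. Those between genes had 1 of 52 (1.92%) and 7 (13.5%), against 4.39% and 13.2% of intergenic positions. Within 500 bp a single gene sets that share, and upstream it was close to that of the positions, while the intronic and exonic shares upstream were above theirs. The upstream shares of positions average both strands, whereas intronic and exonic hairpins lie on the strand of their host, so these are unlike measures. The part of strand in that difference was not tested. Those that lie only opposite a gene of the other strand had 0 of 27 and 4 (14.8%). The median distance to the nearest optimal summit was 5351 bp for intronic, 6140 bp for exonic, 14499 bp for intergenic and 36161 bp for antisense microRNAs. Members of a cluster are not independent, and the 11 clustered antisense microRNAs had a median of 81848 bp and 0 upstream. Among solitary microRNAs the medians were 5776 bp for intronic, 6113 bp for exonic, 18871 bp for intergenic and 9640 bp for antisense ones. Their upstream shares were 34.1%, 29.8%, 15.4% and 25.0% in the same order. The 34 hairpins whose ends match those of an intron had none within 500 bp and 7 upstream (20.6%), and the intronic hairpins that are not whole introns held all 6 intronic cases, of 70. No test over samples can be made of these differences.

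**Figure D3:**
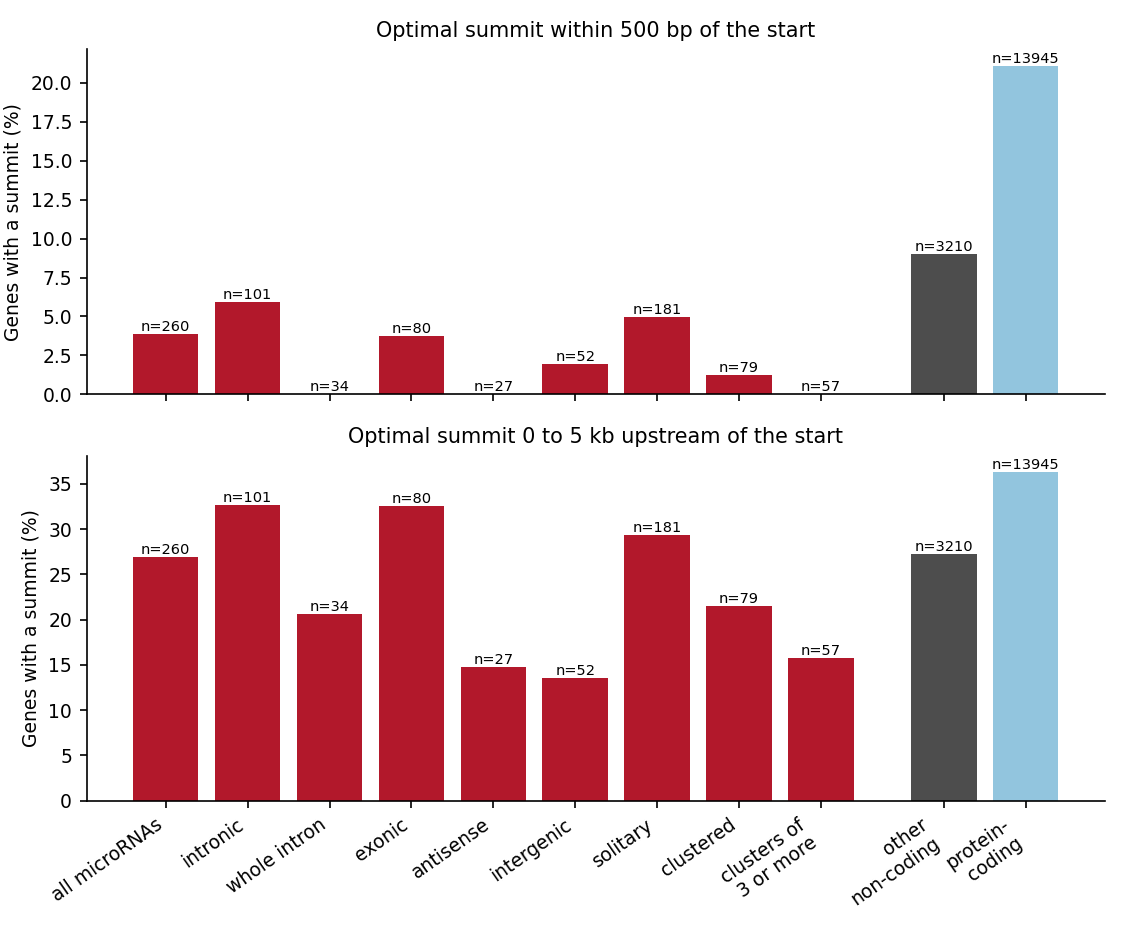
Percentage of genes with an optimal summit within 500 bp of the start (top) and from 0 to 5 kb upstream (bottom), for all microRNAs and for position and cluster classes, with other non-coding and protein-coding genes to the right and the number of genes above each bar. Intergenic and antisense microRNAs are lowest upstream, at 13.5% and 14.8%, and intronic and exonic ones highest, at 32.7% and 32.5%. Cluster members are counted singly, and among solitary antisense microRNAs alone the upstream share was 25.0%.

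Clustered microRNAs, those with another microRNA on the same strand within 10 kb, had an optimal summit within 500 bp at 1 of 79 genes (1.27%), mir-275, and upstream at 17 (21.5%). Solitary ones had 9 of 181 (4.97%) and 53 (29.3%). Members of a cluster share their surroundings and are not independent, and the 79 genes formed 22 clusters. Counted by its first member, 1 of the 22 clusters (4.55%) had a summit within 500 bp and 6 (27.3%) had one upstream, so that clusters and solitary microRNAs had similar shares. None of the 57 members of the 11 clusters of 3 or more had an optimal summit within 500 bp.

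The largest cluster, mir-972 and its 11 partners on X, had its nearest optimal summit 36161 bp away. The mir-309 cluster of 8, a set made at the onset of zygotic transcription that clears maternal messages, had its nearest at 28810 bp, the mir-959 cluster of 6 at 81848 bp and the mir-984 cluster of 5 at 40892 bp. The cluster of 7 that holds mir-992 and mir-310 was closer, at 1381 bp, with a summit in an intron of qsm. Those of mir-100, mir-let7 and mir-125, the developmental timing cluster, and of mir-283, mir-304 and mir-12 in Gmap had their nearest at 5287 bp and 21108 bp. For 3 of the 11 clusters a summit lay within 5 kb upstream of the first member, at the spi cluster (2668 bp, signal 403), the mir-2c cluster (1196 bp, 919) and the cluster of mir-317, mir-277 and mir-34 (3379 bp, 237). Several large clusters were thus over 20 kb from any optimal summit. Counted by gene, 34 of the 57 members of these clusters were that far, against 37 of 181 solitary and 73 of all 260 microRNA genes. Members of 1 cluster are not independent.

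The starts of host genes carried summits more often than the hairpins did. Of 128 protein-coding genes that hold a microRNA on their own strand, 45 (35.2%) had such a summit no more than 500 bp from an annotated start, against 21.1% of all protein-coding genes. Hosts are long, with a median of 14094 bp against 2166 bp for all protein-coding genes, and have a median of 2 start sites against 1. Of the 64 hosts of at least median length, 30 (46.9%) had such a summit, against 33.7% of the 1441 protein-coding genes at least that long, a difference of 13.1 percentage points. Of the 64 shorter hosts, 15 (23.4%) had one, against 19.6% of the shorter protein-coding genes. The long hosts had a median of 3 start sites, against 2 for the long protein-coding genes. With the 5'-most start site alone, 29 of 128 hosts were left, 4.18 percentage points above all protein-coding genes, and the long hosts were 3.35 points above the long protein-coding genes. The part of the number of start sites in these differences was not tested.

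Of 34 long non-coding RNA hosts, 6 (17.6%) had a summit at a start, against 9.62% of 1944 long non-coding RNA genes. These hosts are longer as well, with a median of 6116 bp against 662 bp. Of the 17 hosts at least as long as that median, 3 (17.6%) had a summit at a start, against 11 of the 76 long non-coding RNA genes of that length (14.5%), counts too small to separate. The 6 were the hosts of mir-279 and mir-996, of mir-282, of mir-8 (lncRNA:CR43650, signal 358), a regulator of growth through fat body insulin signalling, of mir-14 (lncRNA:CR43651, 184), of mir-10 (lncRNA:CR42651, 259) in the Antennapedia complex, and of mir-4951 (the heat-inducible lncRNA:Hsromega, 405). The replicates lay far apart at lncRNA:CR42651 (175 in replicate 1, 87.6 in replicate 2, ratio 2.00) and lncRNA:CR43650 (129 and 244, ratio 0.528). Both ratios were outside the 5th to 95th percentiles of all optimal regions, 0.554 and 1.73.

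The coding host with the highest signal was Btk, a Tec family tyrosine kinase gene with mir-2b-1 in an exon, with 1423 in the pooled list, 765 in replicate 1 and 656 in replicate 2, and rank 153. The summit was 161 bp upstream of one of its 6 start sites and 19171 bp from the hairpin. CG5953, the host of mir-4943, had 1398 in the pooled list, 743 in replicate 1 and 640 in replicate 2. spi, which encodes the EGF receptor ligand Spitz and holds mir-2a-1, mir-2a-2 and mir-2b-2 in an intron, had 1332 in the pooled list, 710 in replicate 1 and 607 in replicate 2, with the summit 178 bp upstream of a start and 5501 bp from the nearest of its hairpins. tacc, a centrosome and microtubule gene that holds mir-9384, had 1099 in the pooled list, 598 in replicate 1 and 508 in replicate 2. for, the foraging cGMP-dependent protein kinase gene that holds mir-4972, had 1041 in the pooled list, 567 in replicate 1 and 495 in replicate 2. Replicate 1 was the higher in all 5 of these. The summits of tacc and for lay downstream of their hairpins, by 8704 and 4521 bp.

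Next came MRP (810, mir-9382), Hs3st-A (756, mir-4982), a heparan sulfate sulfotransferase gene, jigr1 (693, mir-92a and mir-92b), the synaptic adhesion genes Nrx-1 (690, mir-4952) and Nlg2 (681, mir-932), and bun (683, mir-967), which encodes TSC22-type transcription factors. CG45092 and chk overlap, hold the same mir-4975 and share the summit of 670, so they are 1 peak and not 2. Weaker summits were at CG7029 (630, mir-4953), PAPLA1 (588, mir-4984), Mob2 (542, mir-4968), the sex determination gene Sxl (525, mir-4956), Atet (496, mir-1005), grp (448), the fly Chk1 kinase gene that holds mir-9c, mir-306, mir-79 and mir-9b, and the cell cycle regulator E2f1 (342, mir-11 and mir-998). At PAPLA1 and Mob2 a start of another gene was closer to the summit. Over the 45 coding hosts with a summit, the median signal was 393, against 301 for all protein-coding genes with a summit. For hosts of at least median length it was 486, against 344 for protein-coding genes at least that long. For shorter hosts it was 320, against 297 for shorter protein-coding genes. The value of a host is that of its strongest summit at any start, and the part of the number of start sites was not tested.

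**Figure D4:**
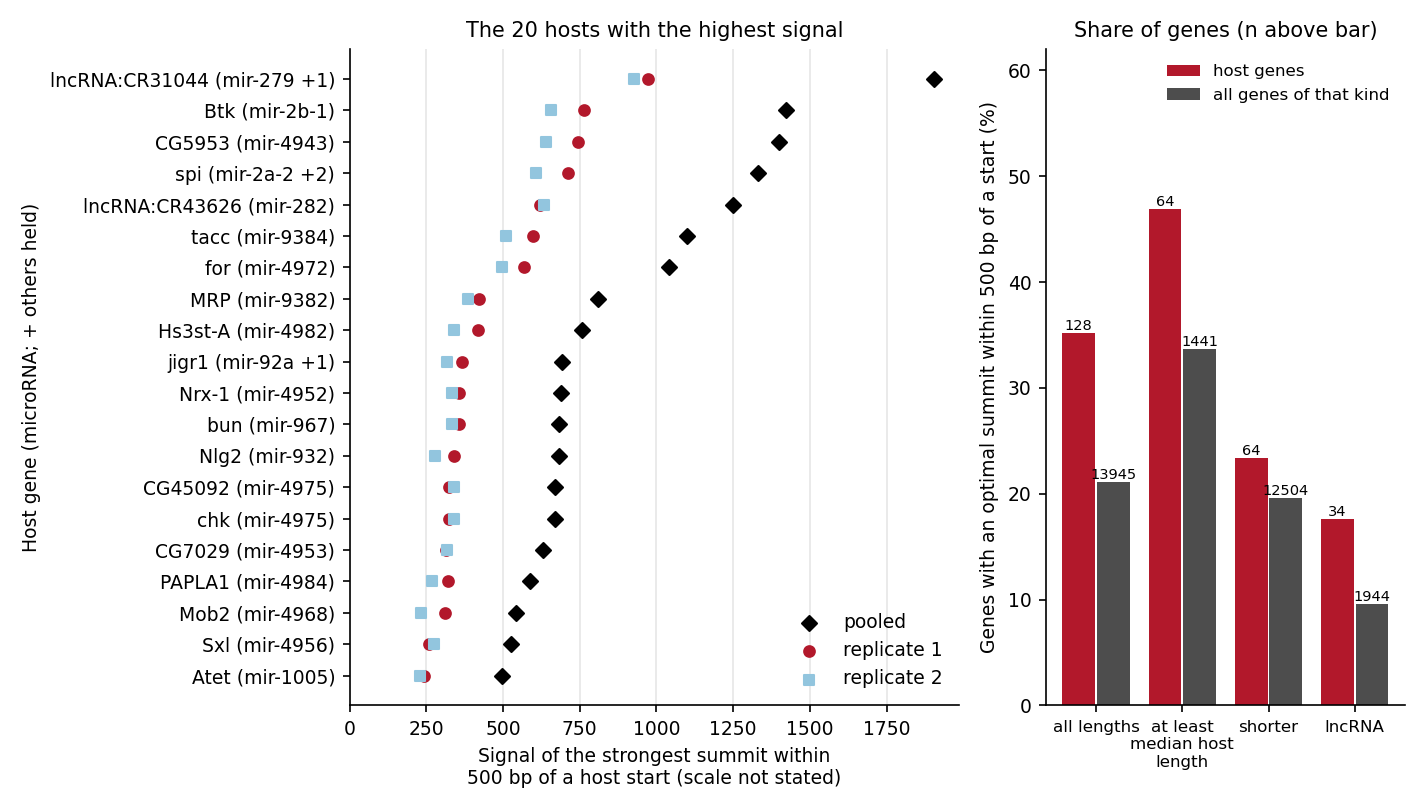
Left, signal of the strongest optimal summit within 500 bp of a start for the 20 hosts with the highest signal, pooled and in each replicate, with a microRNA of each host in brackets. Right, percentage of genes with such a summit among hosts and among all genes of the same kind, with the number of genes above each bar: 35.2% of 128 coding hosts against 21.1% of 13945 protein-coding genes, and 46.9% of 64 long hosts against 33.7% of 1441 long protein-coding genes.

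The summit at a host start was usually far from the hairpin. The median distance, in either direction, was 7910 bp over the 45 coding hosts, with a range from 383 to 75588 bp, and it exceeded 5 kb in 26 of them. The summit lay downstream of the closest hairpin at tacc (8704 bp), for (4521 bp), Oda (1420 bp), Fatp3 (928 bp) and jigr1 (541 bp from mir-92a). The host start beside each of these summits is also downstream, so a transcript from that start does not include that hairpin. Over the 6 long non-coding hosts the median was 1011 bp. Signals of the replicates at the 51 hosts with a summit had ratios from 0.466 to 2.00 with a median of 1.09, against a median of 1.08 over all optimal regions.

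Grouped by seed, 33 seeds were shared by 2 or more members, and groups were looked at after the values were known. The miR-2 family seed was the most widespread, in 14 microRNAs at 7 loci, and 5 of the 7 had a summit upstream within 5 kb or at the start of a host, against 82 of all 203 microRNA loci (40.4%). Those were spi, Btk, the lncRNA:CR45911 cluster, E2f1 and RpS23, a ribosomal protein gene that holds mir-308 (signal 154). The remaining 2 were the mir-309 cluster, with mir-5, mir-6-1, mir-6-2 and mir-6-3, and mir-13b-2 in the chaperonin gene CCT2, whose nearest optimal summit (156) was 8333 bp upstream. The seed of mir-9a, mir-9b and mir-9c was at 2 loci, both with such a summit. The seed of mir-92a, mir-92b and mir-310 to mir-313 was at 2, with one at jigr1 and none at the mir-310 cluster. That of mir-279, mir-996 and mir-286 was also at 2, with one at lncRNA:CR31044 and none at the mir-309 cluster. Loci of a family can share sequence by descent, and members of 1 locus share their summit, so these counts describe loci and are not support for a family effect.

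Well-studied microRNAs had their nearest summits mostly outside the window, as microRNAs in general did. Of 30 listed, 29 were found in the annotation. None of these had an optimal summit within 500 bp, against 3.85% of all 260 microRNA genes, a share at which about 1 of the 29 would have one. Within 2000 bp there were 8 (27.6%), against 19.2% of all, and 12 (41.4%) had one within 5 kb upstream, against 26.9% of all. Several of the 29 share a cluster, and mir-277 and mir-34 share their highest upstream summit, so these counts are not independent. The median distance was 4151 bp, against 6962 bp over all microRNA genes. The list leaves out bantam, and with it 1 of 30 had a summit within 500 bp. Among the nearest, mir-92a was 541 bp from the jigr1 summit, mir-279 was 737 bp from a weak summit of 141, mir-14, which limits cell death, was 880 bp from one of 184, and mir-8 was 883 bp from one of 358. At greater distance, mir-7 in HnRNP-K, a microRNA of photoreceptor differentiation, was at 4861 bp (signal 261), mir-10 at 5480 bp (149), mir-1, the muscle microRNA, at 7399 bp (653, near CG34007), and mir-124, the neuronal microRNA, at 8065 bp (399). The Hox cluster microRNAs mir-iab-4 and mir-iab-8, which lie on opposite strands of the same stretch, were 13155 and 13088 bp from the same summit of 154. mir-31a was 12003 bp away, mir-276a 10554 bp, mir-278 22141 bp and mir-309 29789 bp. mir-315 at 6682 bp (643), mir-184 at 2474 bp (172) and mir-11 at 3178 bp (238, near InR) lay between these.

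**Figure D5:**
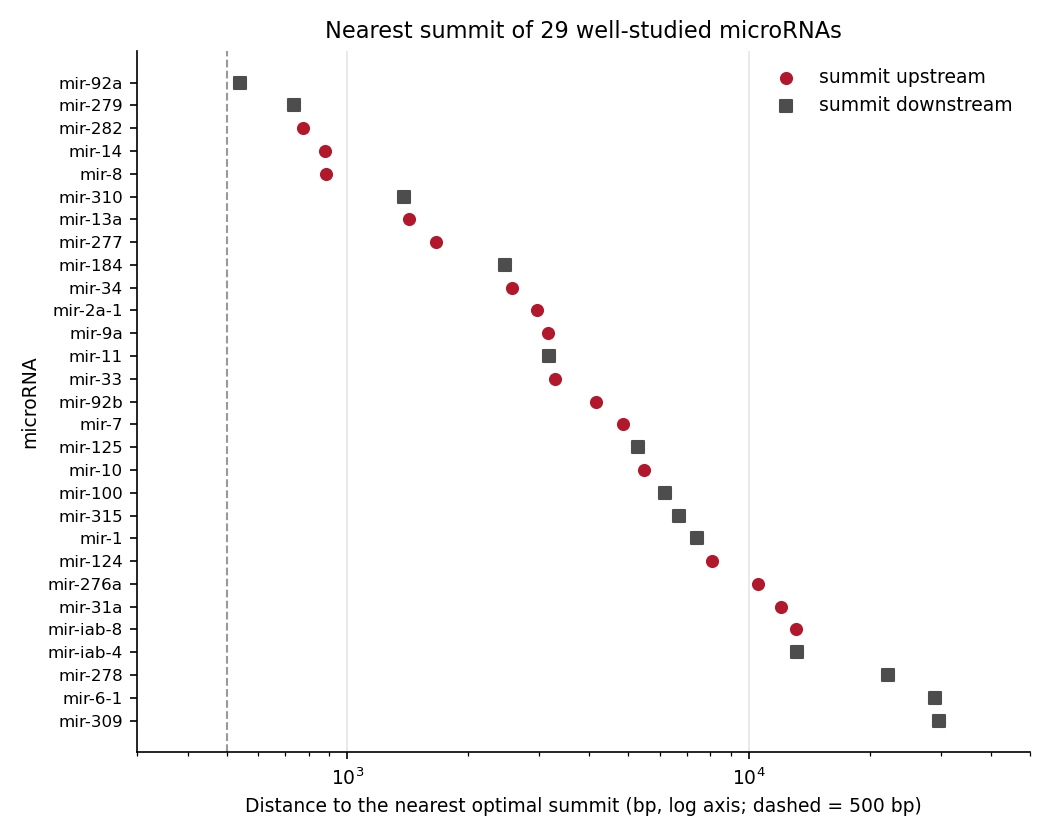
Distance from the annotated start of 29 well-studied microRNAs to their nearest optimal summit, on a log axis, with circles for summits upstream and squares for summits downstream. All lie beyond the dashed line at 500 bp, from 541 bp at mir-92a to 29789 bp at mir-309.

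A few microRNAs had a summit within 500 bp among the strongest regions of 1 replicate only. mir-4974 in CG8671 had a summit within 500 bp among the strongest regions of replicate 2 (113) but not of replicate 1 (67.1, rank 7813), and no optimal one. mir-34 had 33.6 in replicate 1 and 94.3 in replicate 2. mir-4962 had 49.6 in replicate 1 and 126 in replicate 2, and mir-2496 had such a summit in replicate 1 only. At mir-2496 the replicate 2 region matched the optimal summit near the window's edge with a similar signal, but had its summit outside the window. The remaining 8 of the 12 microRNAs with a summit in the optimal list or among the strongest regions of either replicate were present in all 3.

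Among 28 listed genes of small RNA pathways and of message decay, 10 (35.7%) had an optimal summit that close to a start, against 21.1% of all protein-coding genes. Of the 10, pAbp, Pop2, twin, Rga and DCP2 were listed for decay, so the share does not describe the microRNA steps alone. Gene length and the number of start sites were not matched, and their part in this difference was not tested. The highest were r2d2 (575 in the pooled list, 271 in replicate 1, 298 in replicate 2), a Dicer-2 partner in the siRNA pathway whose summit is nearer to the start of Herp, and gw (558, 305 and 257 in the same order), the GW182 protein that recruits deadenylases to AGO1. pAbp (400), the poly(A)-binding protein gene, Cbp20 (265), a cap-binding subunit, Pop2 (248), twin (164) and Rga (144) of the deadenylase complex, AGO1 (214), Ranbp21 (198), the exportin of hairpins, and DCP2 (166), the decapping enzyme, were the others. At AGO1 the nearest starts were those of CG33155 and mRpL53. drosha, pasha, Dcr-1 and loqs, which act in the steps that cut the hairpins, had no optimal summit within 500 bp, and pasha and loqs had a weaker pooled region there.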

How the data were processed

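Regions came from lists that the authors deposited on dm6: 1 per replicate, 1 from the pooled reads and the optimal list that passed the reproducibility step (irreproducible discovery rate, IDR). The signal deposited by the authors is 1 value per region on an unstated scale. Per the deposited description files, lists were made against a control. Not given in the sources used here were the aligner, the peak caller and the threshold of that step. Chromatin was sonicated to fragments of 200 to 800 bp, per the labels. Read depth is unknown.

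Genes came from Ensembl release 115 (assembly BDGP 6.54) and sequences from RefSeq Release 6, and all regions ended within its chromosomes. A host contains the whole hairpin on the same strand, and a replicate region matches with its summit within 250 bp. In the annotation 481 mature microRNA products, all inside member hairpins, are listed as non-coding genes. They were left out of the comparison, and with them its share was 8.34% of 3691 genes. Scripts used Python 3.11.15 and NumPy 2.4.6 and were tested on simulated data. No test over samples exists with 1 group. Named genes were all microRNAs with a summit within 500 bp, the 5 next nearest, the 20 highest upstream, the 15 highest hosts, clusters of 3 or more, those of 1 replicate and a list of 30 well-studied ones, with some lower hosts and upstream summits added after their values were seen. Members and lists were chosen with earlier results of these data known.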

Additional observations from a re-analysis of the deposited data

How the results depend on the processing

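The count of microRNA genes with an optimal summit within 500 bp was 10, and 9 to 11 with either replicate left out. It was 43 with all pooled regions, 6 with the stronger 3592 optimal regions, 16 with overlap of the region, 4 with a window of 200 bp and 29 with one of 1000 bp. The difference from other non-coding genes was -5.19 percentage points, -5.01 to -4.83 with either replicate left out, -11.7 with all pooled regions, -2.93 with the stronger regions, -5.81 by overlap, -2.14 at 200 bp, -4.45 at 1000 bp, -4.11 with 1 gene per cluster, -3.43 with the nearest start site only and -4.50 with the records of mature products kept, a setting chosen after seeing the data.

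Upstream, 70 genes became 68 to 69 with either replicate left out, 136 with all pooled regions, 35 within 2000 bp, 112 within 10000 bp and 44 with summits away from coding starts. The difference of -0.273 points was -0.751 to -0.295 with either replicate left out, -2.89 with all pooled regions, -0.812 by overlap and -2.24 within 2000 bp, and it reversed to 1.32 with the stronger regions, 3.45 within 10000 bp, 1.87 with 1 gene per cluster and 1.04 with summits away from coding starts. The cause was not tested.

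Coding hosts with a summit numbered 45, 40 to 43 with either replicate left out, 85 with all pooled regions, 25 at 200 bp and 29 at the 5'-most start site. Their difference from protein-coding genes was 14.1 points, 10.1 to 11.7 with either replicate left out, 24.3 with all pooled regions, 11.0 with the stronger regions, 17.1 by overlap, 5.58 at 200 bp, 17.2 at 1000 bp, 4.18 at the 5'-most start site and 1.43 for all hosts against long genes only. Chosen after seeing the data, hosts of at least median length were set against genes at least that long, which gave 13.1, and 3.35 at the 5'-most start site. Intronic microRNAs within 500 bp numbered 6, 5 to 7 with either replicate left out, 18 with all pooled regions, 3 with the stronger regions, 3 at 200 bp and 14 at 1000 bp. Intergenic ones numbered 1, 0 to 1 with either replicate left out, 7 with all pooled regions, 0 at 200 bp and 3 at 1000 bp. Clustered ones numbered 1, 1 to 2 with either replicate left out, 11 with all pooled regions, 3 by overlap, 0 at 200 bp, 5 at 1000 bp and 2 with a cluster distance of 50000 bp.

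No paired analysis was possible because the 2 replicates form 1 group. Depth is unknown, so the lists cannot show how many weaker summits lie below their limits.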
